A study of Caenorhabditis elegans with 12 samples.

Results

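The sperm gene families described here are the genes of the table whose names begin with msp, ssp, ssq, nspd, spe or fer, followed by a hyphen and a number, and whose mean over the 6 columns was at least 1 FPKM. FPKM counts the fragments of a gene per kilobase of its transcript, scaled to the mapped fragments of the column. Of 85 listed names, 65 passed this minimum, of 13337 genes that passed it among 46245 listed. The 65 genes were 52 members of paralog families (29 msp, 10 nspd, 9 ssp and 4 ssq genes) and 13 spe genes, each of which is a gene of its own rather than a copy in a family. No fer gene passed. The gene fer-1, a member of the dysferlin family that acts in the fusion of sperm organelles, lay just below the minimum at a mean of 0.994 FPKM, followed by ssp-9 at 0.987 and spe-10 at 0.881. Just above it lay ssp-11 at 1.13, and spe-26 stood at 1.84. The other 20 names were not analysed further, and the identifier that the table calls ssp-11 carries the symbol ssp-9 in the annotation used here.

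A hermaphrodite of Caenorhabditis elegans makes sperm in the last larval stage and oocytes afterwards, so that an adult carries stored sperm beside a growing female germ line. Nematode sperm have no flagellum and crawl, and the force comes from the assembly of the major sperm protein (MSP), encoded by the many nearly identical msp genes. Sperm also release MSP, which acts as a hormone on oocytes and on the sheath around them. The ssp and ssq genes (sperm-specific families, class P and class Q) and the nspd genes (nematode-specific peptide family, group D) were grouped by their transcripts in sperm-producing germ cells, and the role of most of their products is not known. The spe genes were named instead from mutants with defective sperm, and their products are enzymes, channels, organelle components and regulators.

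Messenger RNA was taken from whole day 1 adults of the glp-4(bn2) strain, raised at 20 °C on feeding RNAi. The allele is temperature-sensitive and limits the germ line, and every group carried it, controls included. Worms were fed L4440 (the empty vector), an hda-1 clone or a dve-1 clone, and each of these was given alone or together with atp-2 RNAi, which makes 6 groups of 2 libraries. The labels place the atp-2 bacteria 30 h after the first clone, and the methods of the study give another timing for mRNA sequencing, which could not be settled. HDA-1 is a histone deacetylase, and DVE-1 is a DNA-binding protein known for its part in the mitochondrial unfolded protein response. The product of atp-2 is a subunit of the mitochondrial ATP synthase. The study asked whether hda-1 and dve-1 are needed for the response to mitochondrial stress.

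The table holds 1 FPKM value per gene and group, with both libraries combined, which leaves the variation between libraries unknown, and no difference below could be tested. Total FPKM per column ran from 917209 to 980796, and the spacing of low values gave a depth at which 5 FPKM on 1 kb corresponds to 80.7 to 93.9 fragments. The RNAi target hda-1 went against its label: it stood at 18.8 FPKM in L4440 and 1207 under hda-1 RNAi, and at 21.0 and 811 with atp-2 RNAi. Both are therefore called the hda-1-labelled columns. Whether these fragments came from the worm's own transcript or from the fed RNAi clone was not tested. The other targets were lower under their own clones, dve-1 at 25.4 in L4440 and 11.1 under dve-1 RNAi (19.6 and 14.3 with atp-2 RNAi) and atp-2 at 423 to 598 in the 3 atp-2 RNAi columns against 861 to 1094 in the others. Adult yolk and cuticle genes were abundant in every column: the 7 kept genes of an adult-stage list summed to 42413 FPKM in L4440 and to 25222 in dve-1 with atp-2 RNAi, the lowest of the 6 columns.

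The paralog families lay at 3 levels across the 6 columns. Summed over the 52 paralogs, FPKM was 564 in L4440 and 695 in L4440 with atp-2 RNAi. The same sum was 37.8 and 39.5 in the hda-1-labelled columns, without and with atp-2 RNAi. In the dve-1 RNAi columns it was 2179 and 1792. The hda-1-labelled columns were thus at the bottom, L4440 in the middle and dve-1 RNAi at the top, with and without atp-2 RNAi alike. In these whole worms, fewer sperm-producing cells and less sperm RNA per cell cannot be told apart.

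**Figure D1:**
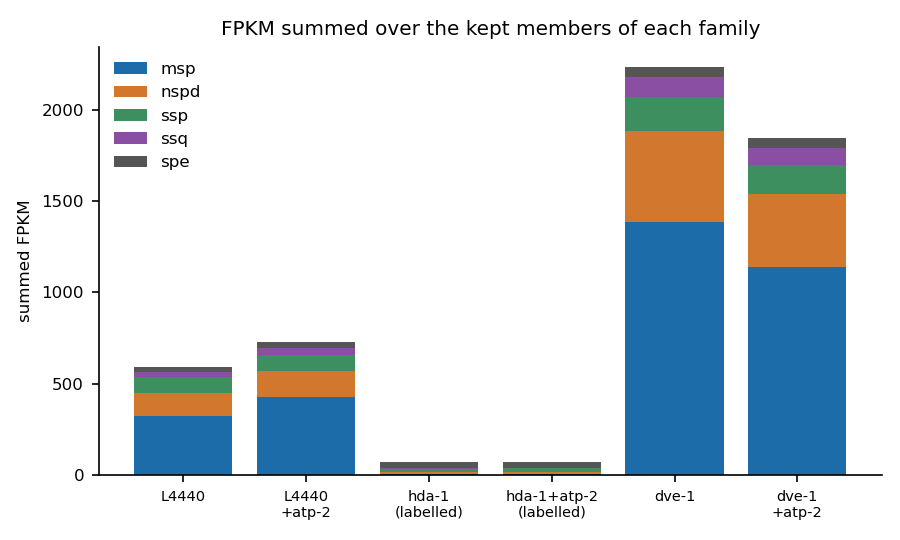
FPKM (vertical axis) summed over the kept members of each family in the 6 columns, stacked by family in colour. The paralogs sum to 2179 and 1792 in the tall bars of dve-1 RNAi and to 37.8 and 39.5 in the short bars labelled hda-1 RNAi, whereas the dark segment of the spe genes stays between 26.9 and 54.2.

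Summed over the 13 spe genes, FPKM was 26.9 and 34.2 in the L4440 columns, 31.5 and 32.1 in the hda-1-labelled columns, and 53.7 and 54.2 in the dve-1 RNAi columns, each pair given without and with atp-2 RNAi. The single-copy sum in the hda-1-labelled columns lay between those of the L4440 columns, whereas the paralog sum was 6.70% of L4440 without atp-2 RNAi and 5.67% with it. Both sums were higher in the dve-1 RNAi columns, at 3.86 times L4440 for the paralogs and 2.0 times for the single-copy genes, and with atp-2 RNAi in both columns at 2.58 and 1.58 times.

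Counted gene by gene, both hda-1-labelled columns lay below the other 4 columns for 48 of 52 paralogs and for 5 of 13 spe genes, and 18.3% of all kept genes showed this order. Both dve-1 RNAi columns lay above the other 4 for 50 of 52 paralogs and 11 of 13 spe genes, against 21.3% of kept genes. Both orders together held for 48 of 52 paralogs and 5 of 13 spe genes, against 9.04% of kept genes. All 29 msp and all 4 ssq genes had both orders. The paralogs without them were nspd-9, nspd-11, ssp-33 and ssp-35, and the spe genes with them included spe-5, spe-11, spe-44 and spe-46. The table listed 26 of 52 paralogs at 0 in both hda-1-labelled columns, 17 of them msp genes, beside 1.49% of kept genes.

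**Figure D2:**
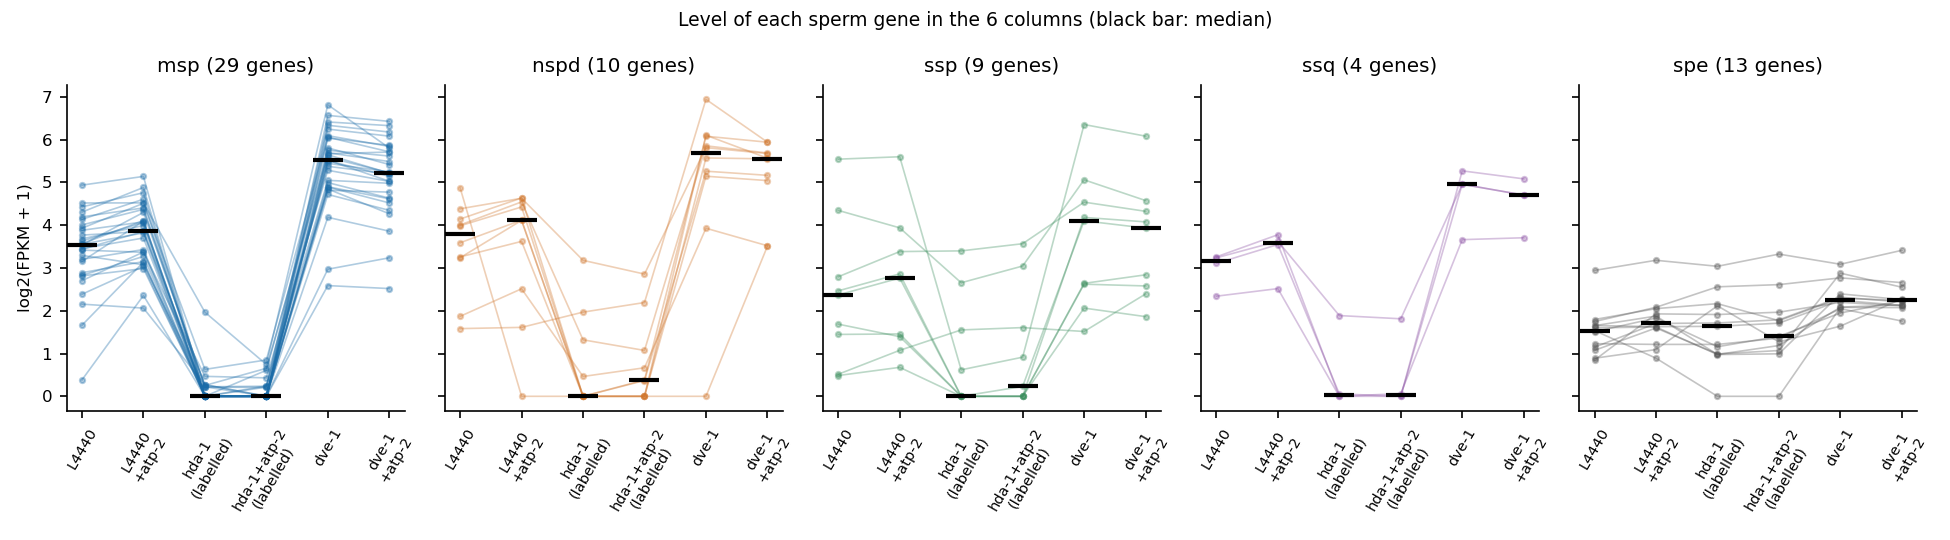
Level of every member in the 6 columns as log2(FPKM + 1), 1 panel per family and 1 line per gene, with the median of the family as a black bar. Most msp, nspd and ssq lines drop to or near 0 in the hda-1-labelled columns and peak in dve-1 RNAi. Exceptions in at least 1 of these are msp-31, nspd-7, nspd-9, nspd-11 and ssq-1. The spe lines stay at low levels throughout.

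The msp genes encode the cytoskeletal protein of the crawling sperm. Together they stood at 324 and 427 FPKM in the L4440 columns, 4.94 and 3.6 in the hda-1-labelled columns, and 1385 and 1139 in the dve-1 RNAi columns, again without and with atp-2 RNAi. At the estimated depth, the first and the third of these sums correspond to about 2010 fragments in L4440 and 32.2 in the hda-1-labelled column. The family was therefore counted well in L4440 and dve-1 RNAi and rested on few fragments in the hda-1-labelled columns.

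The msp gene with the highest mean was msp-40 (chromosome II, 4825414 to 4825797, ce11), at 29.6 and 34.2 FPKM in the L4440 columns, listed at 0 in both hda-1-labelled columns, and 93.7 and 84.9 in the dve-1 RNAi columns. The values of msp-81 were 20.5, 26, 0, 0, 79.7 and 71.3 in the same order (L4440, hda-1 and dve-1, each without and then with atp-2 RNAi), and those of msp-59 were 16.6, 23.3, 0, 0, 74.8 and 66.7. These 3 genes had the pattern of the family as a whole. So did msp-36, at 18.8, 28.5, 0, 0.162, 84.1 and 79.2. Second in mean to msp-40, msp-31 (chromosome II, 4916179 to 4916562, ce11) stood at 21.9, 21.9, 2.91, 0.674, 111 and 54.8, the highest msp value of the table in dve-1 RNAi and also the highest in the hda-1-labelled column. It lies within an intron of aagr-2 on the same strand, a gene at 271.7 FPKM in L4440, 180.2 in the hda-1-labelled column and 203.6 in dve-1 RNAi.

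Lower msp genes kept the same order of columns. The pseudogene msp-42 had 0.304, 4.12, 0, 0, 5.01 and 4.73 FPKM, and the pseudogene msp-71 had 3.45, 3.17, 0.207, 0, 6.84 and 8.43. The values of msp-79 were 2.16, 7.79, 0, 0, 17.2 and 13.5. These 3 had the lowest means of the family. In the middle of the family, msp-65 had 4.22, 7.20, 0, 0, 30.9 and 23.8, the largest log2 ratio for dve-1 RNAi among msp genes (2.61). The values of msp-38 were 8.81, 7.42, 0.161, 0.155, 32.1 and 30.5, and those of msp-49 were 9.68, 9.31, 0.382, 0.348, 37.9 and 31.5, which gave these 2 genes the largest ratios for dve-1 with atp-2 RNAi (1.9 and 1.66). Within dve-1 RNAi, msp-64 (10.6, 18.7, 0.192, 0.574, 49.9 and 51.3) was slightly higher with atp-2 RNAi and msp-10 (5.51, 9.36, 0, 0, 27.7 and 18.2) was lower. The values of msp-50 were 10.8, 16.2, 0, 0.524, 54.9 and 41.7, and those of msp-77 were 12.6, 13.4, 0.209, 0, 44.8 and 31.6. Outside the genes named so far in this family, the msp genes ranged in log2 ratio from -3.97 to -2.81 in the hda-1-labelled column and from 1.70 to 2.49 in dve-1 RNAi.

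The nspd genes encode small nematode-specific peptides of unknown role. The values of nspd-1 in the 6 columns were 16.7, 23.8, 0, 0.303, 66.6 and 60.3 FPKM, and those of nspd-2 were 14.8, 20.5, 0, 0, 67.7 and 46.3. These follow the msp pattern. So did nspd-3 (8.44, 16.3, 0, 0, 46.5 and 45.8), nspd-4 (11, 16.4, 0, 0, 34.3 and 31.9) and nspd-10 (8.56, 11.3, 0, 0.291, 37.3 and 34.9). For nspd-5 the values were 15.0, 22.3, 1.5, 1.1, 56.8 and 50.5, and for nspd-6 they were 2.65, 4.71, 0.379, 0.588, 14.2 and 10.5. The gene nspd-7 kept the most signal of the family in the hda-1-labelled columns, with 19.9, 23.7, 8.05, 6.24, 55.2 and 50.0.

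Of the nspd genes, nspd-9 and nspd-11 departed from the family. The values of nspd-9 (chromosome III, 4830092 to 4830307, ce11) were 1.99, 2.05, 2.91, 3.57, 122 and 60.4 FPKM, so that it was low in 4 columns and, in dve-1 RNAi, the highest of all 65 genes. Its ratio of dve-1 RNAi to L4440 was 61.1, where the median nspd ratio was 4.36. The nearest kept gene on the chromosome, F26A1.9, had 3.90, 3.85, 3.79, 3.09, 19.1 and 15.3 FPKM, and was likewise level in 4 columns and higher in both dve-1 RNAi columns. The pseudogene nspd-11, with 136 nt of exon, was listed at 28.3, 0, 0, 0, 0 and 10.4, an order of columns seen in no other paralog.

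Of the 9 ssp genes, which encode small proteins related to MSP, ssp-37 was the most abundant in every L4440 and dve-1 RNAi column. Its values were 45.6, 47.4, 0.536, 0.885, 80.7 and 66.6 FPKM. It had a log2 ratio of -4.92 in the hda-1-labelled column and only 0.81 in dve-1 RNAi. The values of ssp-10 were 19.3, 14.3, 5.29, 7.25, 32.3 and 22.8, a smaller span in both directions. For ssp-35 the hda-1-labelled columns were not the lowest, its values being 5.93, 9.43, 9.55, 10.8, 22.2 and 19. It lies 132 nt from tbb-6, a tubulin gene at 52.1, 110, 106, 114.9, 96.4 and 114 FPKM.

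The other ssp genes were lower. The values of ssp-34 were 4.52, 6.27, 0, 0, 17.1 and 15.9, and those of ssp-16 were 4.17, 5.79, 0, 0.173, 16.2 and 14.3. Both had the order of the msp genes. So did ssp-19 (1.73, 1.75, 0, 0, 5.23 and 6.16), ssp-31 (2.22, 1.63, 0, 0, 5.15 and 4.98) and ssp-11 (0.400, 0.599, 0, 0, 3.17 and 2.64). The exception was ssp-33, at 0.430, 1.11, 1.93, 2.04, 1.86 and 4.25, for which the hda-1-labelled columns were above those of L4440. Of the ssq genes, ssq-4 had 8.57, 12.7, 0, 0, 37.5 and 32.9 FPKM and ssq-2 had 7.61, 10.7, 0.0397, 0, 30.1 and 25. For ssq-3 the values were 4.06, 4.72, 0, 0.0451, 11.6 and 12. The level of ssq-1 in the hda-1-labelled columns was the highest of this family, its 6 values being 8.42, 11.3, 2.70, 2.51, 30.0 and 25.1.

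The 13 spe genes had low levels in every column, with a highest value of 9.64 FPKM. Of the spe genes tied to sperm organelles and to the embryo, the presenilin relative spe-4 had 2.47, 3.14, 3.49, 2.41, 3.90 and 3.72, and spe-5, a subunit of the proton pump that acidifies vesicles, had 1.85, 2.55, 1.23, 1.64, 2.85 and 3.72. The vesicle trafficking gene spe-39, which acts in many tissues, had 6.69, 8.06, 7.21, 9.01, 7.49 and 9.64 and was nearly level. The values of spe-11, a factor that sperm bring to the embryo, were 1.10, 2.02, 0.985, 1.10, 6.35 and 4.86, the largest ratio of dve-1 RNAi to L4440 among spe genes (5.75 without a pseudocount).

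Among regulators and enzymes, spe-44, a transcription regulator of sperm genes, had 2.14, 2.67, 0.970, 1.28, 3.24 and 3.40 FPKM. Its columns followed the order of the paralogs with a much narrower span. The casein kinase relative spe-6 had 1.22, 2.25, 2.28, 2.45, 3.98 and 3.61. The values of spe-15, an unconventional myosin that sorts contents of the budding spermatid, were 2.36, 3.23, 4.89, 5.11, 5.81 and 5.31, and those of spe-26, a kelch-repeat protein, were 1.35, 1.32, 1.32, 1.57, 3.14 and 2.39. In these 3 genes each hda-1-labelled column was above the L4440 column it is compared with, apart from 1.32 against 1.35 for spe-26.

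Among genes of sperm activation and function, spe-46, which encodes a membrane protein, had 2.03, 2.08, 0.967, 0.991, 4.26 and 3.79 FPKM, again in the order of the paralogs. The calcium channel gene spe-41 (also trp-3) had 2.15, 2.09, 2.11, 2.27, 3.73 and 3.36. The values of spe-29, an activation gene, were 0.796, 2.80, 2.76, 2.91, 3.58 and 3.33, and those of spe-47, which encodes a protein with an MSP domain, were 0.853, 1.13, 3.33, 1.42, 2.12 and 3.85. In the last 2, each hda-1-labelled column was above the L4440 column it is compared with. Their exons overlap genes on the other strand, by 117 of 343 nt with gon-1 for spe-29 and by 103 nt with Y23H5A.9 for spe-47, and the strandedness of the libraries is not given in the sources used here.

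The rule left out by name 3 genes that now carry spe symbols and had a mean above 1 FPKM. F32A11.3 (spe-18) had 6.01, 7.26, 3.27, 3.6, 15.6 and 16.8 FPKM, in the order of the paralogs. Y51F10.10 (spe-48) had 25.5, 32.1, 23.1, 23.9, 26.2 and 24.6. F55H12.5 (spe-54) had 0.932, 1.09, 1.59, 1.12, 3.85 and 2.79, and was highest in the dve-1 RNAi columns.

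For hda-1 RNAi against L4440, a gene was called when the log2 ratio of FPKM + 1 was at least 1 in size and the higher column had at least 5 FPKM. The sperm paralogs were lower in the hda-1-labelled column: 38 of the 65 members were called lower, where 3.25% of kept genes were, and 0 were called higher, where 8.77% were. The called genes were 25 of 29 msp, 8 of 10 nspd, 3 of 4 ssq and 2 of 9 ssp genes (ssp-37 and ssp-10), and 0 of 13 spe genes. Only 1 spe gene reached 5 FPKM in either column, so the rule could have called 1 spe gene at most. The 9 msp genes listed above 0 in both columns had a median of 0.0183 of their L4440 level.

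The median log2 ratio was -3.30 for msp, -3.25 for nspd, -2.70 for ssq and -1.69 for ssp genes. It was -0.02 for the spe genes and 0.16 for all kept genes. Without a pseudocount, the 12 spe genes above 0 in both columns had a median ratio of 1.03, between 0.453 (spe-44) and 3.91 (spe-47). The size of the ratio of genes near 0 depends on the pseudocount: the median over all 65 members was -2.70 with a pseudocount of 1, -5.36 with 0.1 and -1.19 with 5. With a minimum of 10 FPKM, 23 members were called lower in place of 38.

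**Figure D3:**
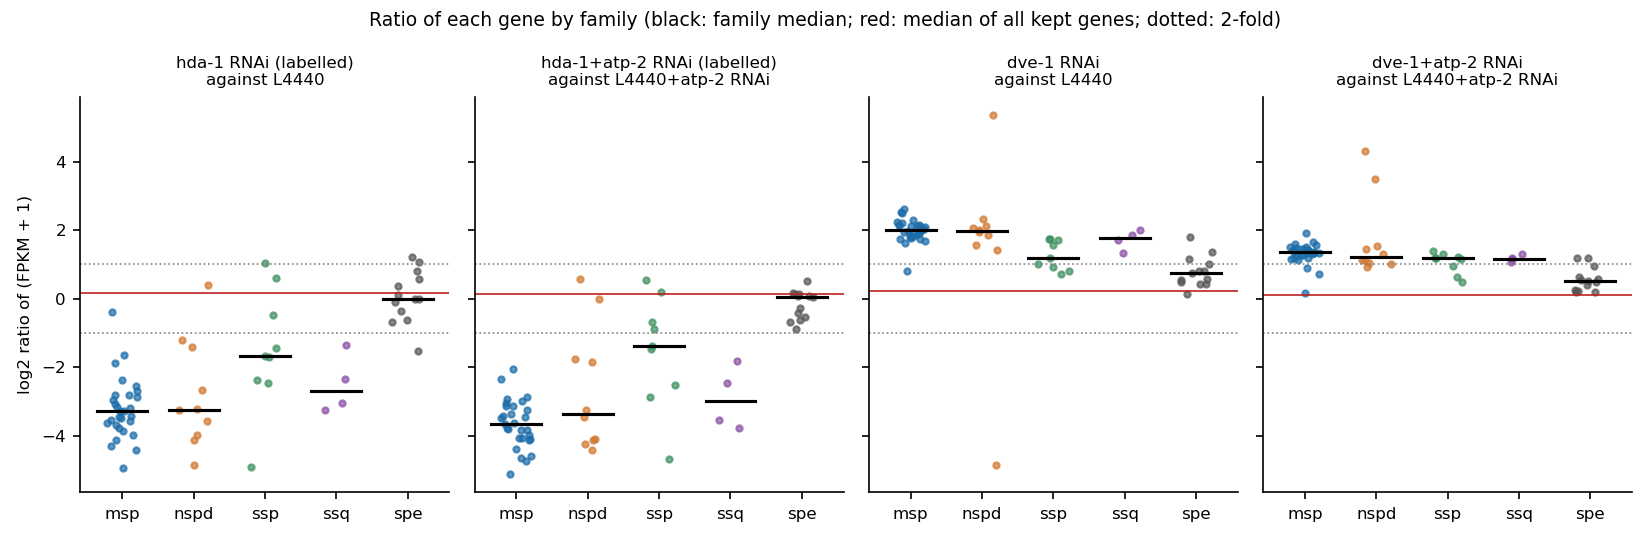
log2 ratio of FPKM + 1 (vertical axis) for every member by family in the 4 comparisons of the hda-1-labelled columns or dve-1 RNAi with L4440, without and with atp-2 RNAi, with family medians in black and the median of all kept genes in red. The msp medians are -3.30 and -3.66 in the first pair and 2.0 and 1.36 in the second, and the points of the spe genes lie around 0 in the first pair.

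With atp-2 RNAi in both columns, 40 of the 65 members were called lower in the hda-1-labelled column, where 4.34% of kept genes were, and 0 were called higher, where 8.43% were. They were 27 of 29 msp genes, 7 of 10 nspd, 3 of 9 ssp, 3 of 4 ssq and 0 of 13 spe genes. Just 2 spe genes reached 5 FPKM in either column and could have been called. The median log2 ratio was -3.44 for the paralogs and 0.04 for the spe genes. This pair of columns and the pair without atp-2 RNAi have no column in common. The calls shared by both were 36, which is 94.7% of the 38 and 90% of the 40, and for all kept genes the shared calls were 77.2% and 57.9% of each list. Only nspd-11 and ssp-10 were called without atp-2 RNAi alone, and msp-65, msp-79, ssp-16 and ssp-34 with it alone.

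In dve-1 RNAi against L4440 the direction was the opposite, and 47 of the 65 members were called higher, where 7.08% of kept genes were. They were 28 of 29 msp, 9 of 10 nspd, 4 of 4 ssq and 4 of 9 ssp genes, and 2 of 13 spe genes, spe-11 and spe-15. Only 3 spe genes reached 5 FPKM in either column, against 50 of 52 paralogs, so the rule could have called 3 spe genes at most. The pseudogene nspd-11 was the only member called lower, where 2.23% of kept genes were. The msp gene that missed the call was the pseudogene msp-71, at 3.45 and 6.84 FPKM. Without a pseudocount the median ratio of the msp genes was 4.46, from 1.98 (msp-71) to 16.5 (msp-42), and the 17 genes on chromosome IV lay between 3.51 and 7.94.

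The median log2 ratio for dve-1 RNAi was 2.0 for msp, 1.97 for nspd, 1.78 for ssq and 1.19 for ssp genes, 0.75 for the spe genes and 0.22 for all kept genes. All 13 spe genes had a higher value in dve-1 RNAi than in L4440. Such a direction was common, since the median of all kept genes was also above 0, and their share is not given here. Their median ratio without a pseudocount was 2.09, from 1.12 (spe-39) to 5.75 (spe-11). With a 4-fold threshold, 21 of the 65 members were called higher in place of 47.

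With atp-2 RNAi in both columns, 42 of the 65 members were called higher in dve-1 RNAi, where 4.81% of kept genes were, and 0 lower, where 2.39% were. The called genes were 26 of 29 msp, 9 of 10 nspd, 4 of 4 ssq, 3 of 9 ssp and 0 of 13 spe genes. Here the rule could have called 2 spe genes at most, as only 2 reached 5 FPKM in either column. The median ratio without a pseudocount was 2.71 for msp genes (1.15 to 4.11) and 1.61 for spe genes (1.19 to 3.75). Only nspd-9 and nspd-11 passed a 4-fold threshold, 2 genes in place of 42. No column is shared with the pair without atp-2 RNAi, and 40 members were called in both, 85.1% and 95.2% of the lists, where all kept genes gave 54.7% and 80.5%.

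The effect of atp-2 RNAi on the sperm genes was small beside these. In L4440 the sum over all 65 members went from 591 to 729.7 FPKM (1.23 times), and the median log2 ratio was 0.33 for msp, 0.47 for nspd, 0.41 for ssq, 0.19 for ssp and 0.24 for spe genes, beside 0.11 for all kept genes. Higher values with atp-2 RNAi were seen in 56 of 65 members. The share of all kept genes that did so is not given here, and their median was above 0 as well. With median-of-ratios scaling the median was 0.20 for the 65 members and -0.02 for all kept genes. Called were msp-79 as higher, at 2.16 and 7.79 FPKM, where 1.89% of kept genes were, and nspd-11 as lower, where 0.652% were.

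In dve-1 RNAi the direction was the reverse: the sum went from 2232 to 1846 FPKM (0.827 times), and 55 of 65 members had a lower value with atp-2 RNAi. The median log2 ratio was -0.25 for msp, -0.14 for nspd, -0.22 for ssq, -0.17 for ssp and -0.08 for spe genes, beside 0.02 for all kept genes. Called lower were msp-31, from 111 to 54.8 FPKM, and nspd-9, from 122 to 60.4, where 1.56% of kept genes were, and nspd-11 was called higher, where 0.997% were. Of the 65 members, 48 had both a higher value in L4440 and a lower value in dve-1 RNAi with atp-2 RNAi. For these counts of 55 and 48, the share of all kept genes is not given here. The log2 ratio in dve-1 RNAi was below that in L4440 for 46 of 52 paralogs, with a median difference of -0.60, and for 10 of 13 spe genes, with a median of -0.17. Over all kept genes it was below for 8720 of 13337, with a median difference of -0.11.

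In the hda-1-labelled columns, 0 members were called in either direction with atp-2 RNAi, where 0.742% of kept genes were called higher and 0.645% lower. Few could be: only 5 of the 65 members reached 5 FPKM in either column. The sum was 69.4 FPKM without and 71.6 with atp-2 RNAi.

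**Figure D4:**
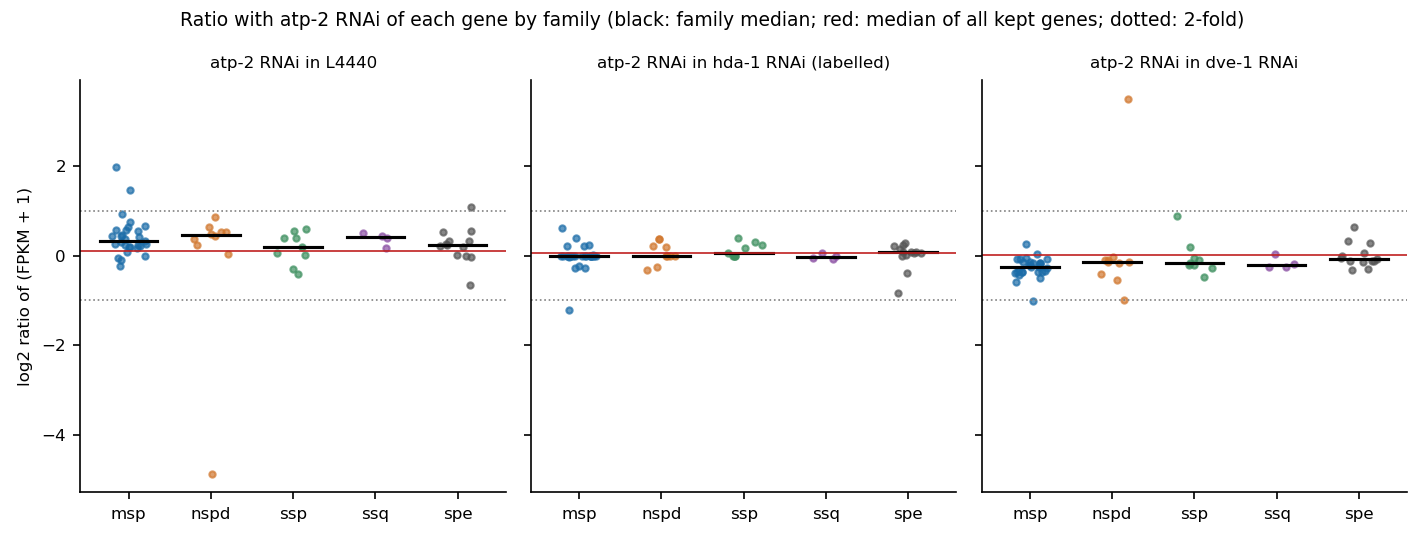
log2 ratio of FPKM + 1 with against without atp-2 RNAi (vertical axis) for every member by family, in L4440, in the hda-1-labelled columns and in dve-1 RNAi, with family medians in black and the median of all kept genes in red. Family medians lie above the red line in L4440 and below it in dve-1 RNAi, and the points farthest from 0 in the first and the third panel are nspd-11.

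Paralogs and spe genes differ in level and in structure as well as in kind. The mean over the 6 columns had a median of 16.0 FPKM for paralogs and 2.62 for spe genes, so they were also set side by side where their levels overlap. For 11 paralogs the mean fell between the lowest and highest spe mean (1.53 and 8.02 FPKM). They include the pseudogenes msp-42, msp-71 and nspd-11. This mean contains the columns compared next, so the match in level is not independent of them and cannot separate level from kind of gene. Of these 11, 9 had both orders of columns, against 5 of 13 spe genes. In both hda-1-labelled columns, 6 of the 11 were listed at 0. The median ratio of dve-1 RNAi to L4440 was 3.84 for the 10 of them above 0 in both columns, and 2.09 for the spe genes.

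In the annotation, 47 of 52 paralogs had a single exon (90.4%), against 0 of 13 spe genes and 4.07% of kept genes. The msp genes had between 362 and 402 nt of exon. Multiples of 3 were 47 of 52 paralog lengths, 3 of 13 spe lengths and those of 4723 of 13259 kept genes with an annotated exon. All 10 nspd genes had under 300 nt (136 to 222). FPKM divides by this length, so a few fragments weigh most in the nspd genes. Of the msp genes, 12 lay on chromosome II, between 4785898 and 5810330, and 17 on chromosome IV, between 5055631 and 10143740 (ce11), and no member lay on X. The median ratio of dve-1 RNAi to L4440 was 4.68 on II and 4.35 on IV, and with atp-2 RNAi 2.62 and 2.74. For the hda-1-labelled column, over the 5 genes on II and 4 on IV above 0 in both columns, it was 0.0395 on II and 0.0138 on IV. With atp-2 RNAi it was 0.0315 and 0.00906, over 6 and 3 genes. Since msp copies are nearly identical and only uniquely mapping reads were kept, the level of any 1 copy is uncertain, and the family sums leave out reads that matched several copies.

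The nearest kept protein-coding genes outside the families were also listed, 41 genes at a median distance of 696 nt. In the hda-1-labelled column, 6 of the 41 were called higher and 3 lower (8.77% and 3.25% of kept genes), and with atp-2 RNAi 3 higher and 4 lower (8.43% and 4.34%). In dve-1 RNAi, 9 were called higher and 1 lower (7.08% and 2.23%), and with atp-2 RNAi 5 higher and 1 lower (4.81% and 2.39%). Calls were fewer among neighbours than among the paralogs, but many neighbours were below 5 FPKM in both columns and could not be called. F36H12.5, for example, had 1.45 FPKM in L4440 and 0 in the hda-1-labelled column. The order of columns was common: 20 of 41 neighbours (48.8%) had both orders, beside 9.04% of kept genes. Some of these neighbours are sperm genes themselves, such as the sperm histone gene htas-1, and 1 shares exon bases with a member, T28H11.7, which overlaps ssq-4 over 651 nt on the other strand and was listed at 0 in both hda-1-labelled columns.

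A list outside the families was meant for other genes known from sperm, although it also holds T24B8.5. Of its 16 kept genes, 11 had both orders of columns, beside 9.04% of all kept genes. Of the 16, 6 were called lower in the hda-1-labelled column and 0 higher (3.25% and 8.77% of all kept genes). Just 7 of the 16 reached 5 FPKM in that comparison, and 8 with atp-2 RNAi. The same 6 were called lower with atp-2 RNAi (4.34% of all kept genes). They were spch-1 and spch-3 (sperm chromatin proteins), smz-1 (a sperm protein with PDZ domains), msd-2 and msd-4 (MSP-domain proteins) and gsp-3 (a sperm phosphatase). In the hda-1-labelled column with atp-2 RNAi, 1 gene of the list was called higher (8.43% of all kept genes). It was T24B8.5, which is known from intestinal immune responses. In dve-1 RNAi 11 were called higher, and with atp-2 RNAi 9, T24B8.5 included (7.08% and 4.81% of all kept genes). Among them, spch-1 had 11.8, 13.6, 0.183, 0.335, 38.0 and 34.9 FPKM. Leaving out T24B8.5, which ranged from 438 to 1719 FPKM, the other 15 genes summed to 69.1, 87.9, 13.8, 15.2, 231.7 and 225 FPKM.

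Genes that act before or beside sperm differentiation had few calls, and many were too low for the rule to call. Of 13 kept genes on a list of sperm fate, 0 were called in any of the 7 comparisons. Of these 13, 5 reached 5 FPKM for the hda-1-labelled column and 6 for dve-1 RNAi. The median log2 ratio was 0.03 in the hda-1-labelled column and 0.16 in dve-1 RNAi. The largest change on this list was below the minimum level, that of cpb-1, at 4.21 FPKM in L4440 and 0.496 in the hda-1-labelled column. It encodes an RNA-binding protein needed for sperm and is also on the list of other sperm genes above. Among 19 early germ-line genes, of which 13 reached 5 FPKM in the comparison of the hda-1-labelled column with L4440, only him-3, a component of meiotic chromosome axes, was called, at 8.73 FPKM in L4440 and 3.47 in the hda-1-labelled column. Of 23 genes of the female germ line, of which 9 reached 5 FPKM in dve-1 RNAi or L4440, only pos-1, a maternal RNA-binding protein, was called, at 2.2 and 5.59 FPKM in L4440 and dve-1 RNAi. Their medians were -0.02 in the hda-1-labelled column and 0.62 in dve-1 RNAi. Without perm-2 and perm-4, which exceeded 1553 FPKM in every column, the female genes summed to 68.3, 109, 65.5, 97.7, 120.6 and 156 FPKM. With them the sum was 6307 in L4440 and 3752 in the hda-1-labelled column. Without them the female sum, like the sperm gene sums, was higher in dve-1 RNAi than in L4440. Both dve-1 RNAi columns lay above the other 4 for 12 of 23 female, 6 of 19 early germ-line and 4 of 13 sperm-fate genes. Among all kept genes this share was 21.3%. Both hda-1-labelled columns lay below the other 4 for 4, 1 and 3 genes of these lists, beside 18.3% of kept genes.

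**Figure D5:**
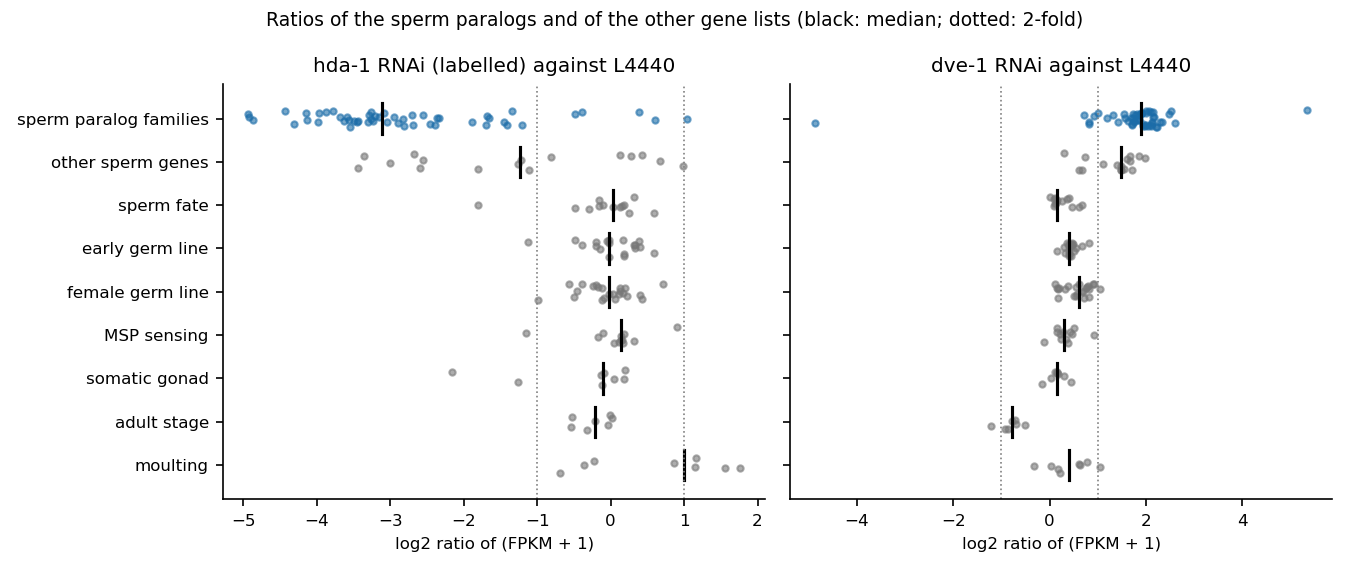
log2 ratio of FPKM + 1 (horizontal axis) for each paralog (blue) and for each kept gene of 8 other lists (grey), in the hda-1-labelled column and in dve-1 RNAi against L4440, with medians in black. The paralog medians are -3.12 and 1.9, and the lists of sperm fate, early germ line and female germ line have medians between -0.02 and 0.62.

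Genes of the tissues that receive the MSP signal, of the somatic gonad and of growth stage were read beside the members. Of 12 genes of MSP sensing, only acy-4, the adenylate cyclase of the gonadal sheath, was called, lower in both comparisons of the hda-1-labelled columns (8.06 and 3.07 FPKM without atp-2 RNAi). Of 8 somatic gonad genes, fkh-6 (6.79 and 2.24) and sth-1, a gene of the spermatheca (6.41 and 0.652), were called lower there, and sth-1 again with atp-2 RNAi. Of the 7 adult-stage genes, vit-1, a yolk protein gene, was called lower in dve-1 RNAi (1874 and 808), and the median of the list was -0.78, beside 0.22 for all kept genes. Of 8 moulting genes, mlt-10 and noah-1 were called higher in the hda-1-labelled column and noah-1 in dve-1 RNAi, without atp-2 RNAi. The median of the list was 1.01 in the hda-1-labelled column and 1.09 with atp-2 RNAi, beside 0.16 and 0.13 for all kept genes, and 0.42 in dve-1 RNAi. Of 8 genes of the male body, 3 were kept and 0 of these were called in any comparison. The part of growth stage, gonad or germ-line size in the sperm gene levels was not tested.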

How the data were processed

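Whole worms were sequenced as 12 libraries in 6 groups of 2, and the sources do not say whether they represent separate cultures. The authors mapped reads to ce11 (TopHat2 2.1.1), used only unique alignments and deposited FPKM values from Cufflinks, 1 per gene and group with both libraries combined. Strandedness is not given in the sources used here.

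Members, lists and thresholds were chosen with earlier results of these data known. All 65 member identifiers matched the Ensembl 115 annotation of WBcel235, the assembly of ce11. Ratios were taken as log2 of FPKM + 1, which understates the change of low genes. Calls needed 2-fold and 5 FPKM, over 7 comparisons, and no test between groups was possible. Named were the spe genes, of which 1 is counted but not reported here by itself, the 5 highest and the most extreme paralogs per family, any member among 5 or fewer called, and others where they bear on a result. Depth was taken from the spacing of low values, and fragment numbers cover counting error only. The calls were tested on simulated data with counting error only, which cannot show the effect of variation between libraries. Alternatives were other pseudocounts, filters, thresholds and scalings. Calculations used Python 3.11.15, pandas 2.3.3 and numpy 2.4.6.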

Additional observations from a re-analysis of the deposited data

Results flagged for a closer look

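The direction of the sperm genes with atp-2 RNAi differed between 2 backgrounds. The summed FPKM of the 65 members was 1.23 times as high with atp-2 RNAi in L4440 and 0.827 times as high with atp-2 RNAi under dve-1 RNAi. Each background has a single value without and with atp-2 RNAi, so this difference was not tested. The rise in L4440 was smaller after other scalings of the columns. The L4440 sums were then 678 and 740 FPKM with median-of-ratios scaling, and 657 and 734 with upper-quartile scaling. Under dve-1 RNAi they were 2174 and 1731 with the first scaling, and 2131 and 1762 with the second.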

How the results depend on the processing

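No paired analysis was possible because the deposited columns combine both libraries of a group, and for the same reason no replicate could be left out. Of 232 values recomputed under the alternatives, 208 stayed within 1.5 times and 24 moved beyond it. Most of these values are counts or sums of a single column, which have no direction. Of the median log2 ratios, 0 changed sign. The members' sum in the hda-1-labelled columns went from 69.4 to 71.6 FPKM with atp-2 RNAi as deposited. With median-of-ratios scaling it went the other way, from 69.9 to 65.6. Median-of-ratios and upper-quartile scaling moved none of their 27 values each. Median-of-ratios scaling shifted the median of all kept genes from 0.16 to 0.00 for the hda-1-labelled column and from 0.22 to 0.02 for dve-1 RNAi, and the members' medians then were -2.87 and 1.59.

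The median log2 ratio of the members in the hda-1-labelled column, without and with atp-2 RNAi, was -5.36 and -4.88 with a pseudocount of 0.1, -1.19 and -1.36 with 5, and -1.69 and -1.95 with no filter on the mean. With a mean of at least 5 FPKM, the members summed to 42.9 and 46.4 FPKM in these columns. A 4-fold threshold left 21 members higher in dve-1 RNAi and 2 with atp-2 RNAi, and a minimum of 10 FPKM left 23 lower in the hda-1-labelled column. In L4440, atp-2 RNAi gave 2 members called higher with a pseudocount of 0.1 and 0 with 5, with 4-fold and with 10 FPKM. Those called lower with atp-2 RNAi under dve-1 RNAi were 0 with a pseudocount of 5 and with 4-fold, and 1 with at least 300 nt of exon. The calls of nspd-11 (lower in dve-1 RNAi, lower with atp-2 RNAi in L4440 and higher with atp-2 RNAi under dve-1 RNAi) each became 0 with at least 300 nt of exon, and also without pseudogenes and members sharing exon bases, an alternative chosen after seeing the data. Few fragments lie behind the members' values in the hda-1-labelled columns, about 32.2 for all msp genes without atp-2 RNAi.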
